A study of Oryctolagus cuniculus with 6 samples.

Results

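NF-kB is the family of transcription factors that switches on inflammatory genes after injury or infection. The genes described here encode 3 of its subunits and 7 proteins that hold it in check or tune it: NFKB1, REL, NFKB2, BCL3, NFKBIZ, NFKBIA, NFKBIE, TNFAIP3, TNIP3 and ZC3H12A. They were chosen by gene symbol, all 10 have a row among the 29587 genes of the table, and all 10 passed the filter on low counts that left 13724 genes to test. Tracheal mucosa came from New Zealand rabbits aged 3 months, and polyA RNA was sequenced from 3 libraries per group. In the high cuff pressure group a 3.0 mm tracheal tube lay 13 cm deep with its cuff held at 35 cmH2O for 2 h. The control group is named in the labels with no word on whether those animals were intubated, and no time of sampling is given for either group. The labels name epithelial cells and, in the protocol, mucosa.

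In resting cells NF-kB dimers are held in the cytoplasm by IkB proteins. In the canonical route, cytokine and pathogen receptors activate a kinase complex that has IkB destroyed, and dimers made from the NFKB1 product, RELA and REL enter the nucleus. In the non-canonical route, used by a few receptors of the tumour necrosis factor family, the NFKB2 precursor is trimmed to a subunit that pairs with RELB. Many genes that NF-kB induces encode its own inhibitors, so that in airway epithelium and leukocytes a response also starts its own feedback. RELA and RELB were not analysed here.

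Library totals ranged from 10501734 to 14415754 counts. On log2 CPM (CPM is a gene's share of the library's counts after TMM scaling) the high cuff pressure libraries correlated with each other at 0.90 to 0.93 across genes and the controls at 0.95 to 0.96, so the treated libraries were the more varied ones. Epithelial genes were present: the summed level of 7 measured markers, such as EPCAM, CDH1 and KRT5, was 2333 to 4333 CPM with high cuff pressure and 1509 to 1618 CPM in controls. The markers did not move alike: the log2 fold change was 2.38 for KRT5, 2.71 for KRT7 and 0.88 for KRT8, of which KRT7 passed, and -0.34 and -0.11 for EPCAM and CDH1. Markers of other cells were present too, and they moved with the groups. For neutrophils, 11 of 15 listed markers had a row, and their summed level was 6887, 3665 and 1507 CPM in high cuff pressure replicates 1 to 3 against 181, 7.98 and 433 CPM in controls 1 to 3. S100A9 made up most of the treated sums, at 4294, 2272 and 846 CPM against 63.1, 2.96 and 401 CPM. It did not pass (edgeR adjusted p = 0.12). Of 8 tested markers, 7 had positive log2 fold changes, and LTF had -1.30 (edgeR adjusted p = 0.51). CSF3R, CXCR1, FPR1 and PGLYRP1 met the filter on low counts only through the treated libraries. The granule gene MMP8 was at 0 counts in all 6 libraries, and MPO had 1 count, in control replicate 3. S100A8, S100A12 and CSF3R had counts in every library. For monocytes and macrophages, 12 of 13 markers summed to 225 to 258 CPM against 66.8 to 145 CPM. These did not move alike either: 8 had positive and 4 negative log2 fold changes. CD14 and CD68 had 2.27 and 1.69, while C1QA, C1QB and C1QC had -1.05, -0.93 and -0.80. The part of these cells in the results below was not tested, and in bulk tissue fewer cells of a type and less RNA per cell cannot be told apart.

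Transcripts of BCL3 and NFKB2 were higher in mucosa exposed to high cuff pressure, by 5.55-fold and 2.05-fold. These were the 2 of 10 genes that passed (edgeR's quasi-likelihood fit, p adjusted over all genes by Benjamini-Hochberg, threshold 0.05), where 3.67% of all tested genes were called higher. Of the 10, 0 were called lower, beside 1.62% of all tested genes; DESeq2 also called 0 lower, beside 8.55% of genes, and called 4 higher, beside 10.7%. At an unadjusted p under 0.05 stood 5 of the 10, with NFKB1 the only lower one, beside 29.3% of all tested genes. ZC3H12A and NFKBIE had larger fold changes than NFKB2 but a wider spread between libraries. NFKB1, REL and NFKBIZ had negative values, and NFKBIA, TNFAIP3 and TNIP3 had positive values that did not pass. The groups did not overlap for 3 genes with higher values, BCL3, NFKB2 and ZC3H12A, where 18.6% of tested genes were separated in that direction, and for 1 gene with lower values, NFKB1, where 18.7% were. The median log2 fold change was 0.71 over the 10 genes and -0.01 over all tested genes.

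**Figure D1:**
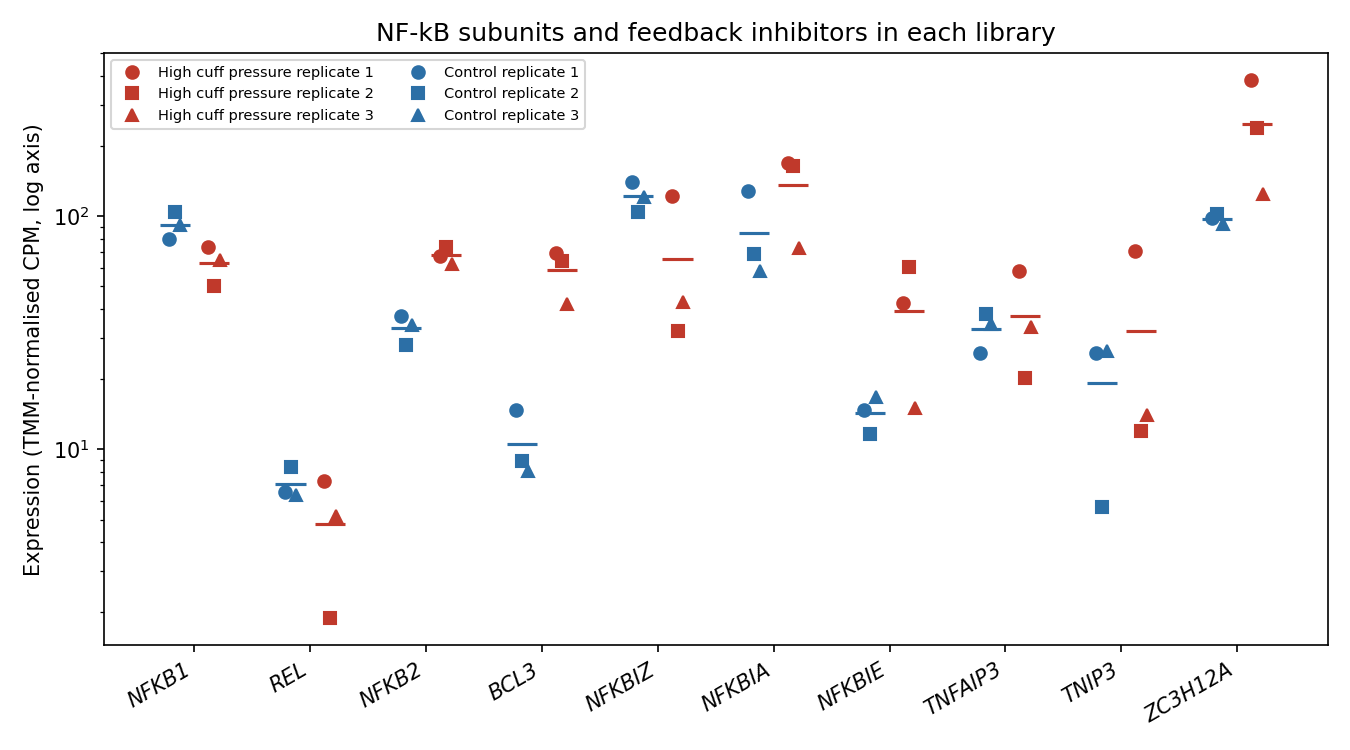
Expression of the 10 genes in each library as TMM-normalised CPM on a log axis; red symbols are the 3 high cuff pressure libraries, blue symbols the 3 controls, and horizontal bars the group means. All red points lie above all blue points for NFKB2, BCL3 and ZC3H12A, and below them for NFKB1.

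NFKB1 encodes the precursor of the subunit that most canonical dimers contain. The row ENSOCUG00000021712 lies on chromosome 15, 47003122 to 47236638 on the minus strand; positions here follow the deposited table, with the build not given in the sources used here. Its level was 74.0, 50.4 and 64.6 CPM in high cuff pressure replicates 1 to 3 and 79.5, 104 and 91.9 CPM in controls 1 to 3. Every treated library was below every control, although the highest treated value and the lowest control value were close. This is a log2 fold change of -0.54 ± 0.23 SE with a 95% interval of -1.07 to -0.023, and it did not pass (edgeR adjusted p = 0.16).

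REL, which encodes the c-Rel subunit of lymphoid and myeloid cells (chromosome 2, 125305457 to 125350056), was the least abundant of the 10. It had 74, 16 and 68 counts with high cuff pressure and 77, 131 and 87 counts in controls, or 7.29, 1.88 and 5.15 against 6.58, 8.43 and 6.34 CPM. Only high cuff pressure replicate 2 lay far below the rest, and the groups overlapped. Its log2 fold change of -0.57 ± 0.48 SE had a 95% interval of -1.67 to 0.54 and did not pass (edgeR adjusted p = 0.45), which as a fold runs from 0.313 to 1.45 times the control level.

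NFKB2, the non-canonical subunit gene (chromosome 18, 50404793 to 50412452), had the narrowest range of the 10 among the treated libraries. It stood at 67.5, 73.7 and 62.6 CPM with high cuff pressure and at 37.3, 28.0 and 34.1 CPM in controls. The treated libraries spanned 1.18-fold and lay well clear of the controls, which spanned 1.33-fold. It rose by 1.03 ± 0.21 SE on the log2 scale (95% interval 0.55 to 1.52, edgeR adjusted p = 0.039). The call depended on single libraries: leaving out treated replicates 1, 2 and 3 in turn gave an edgeR adjusted p of 0.027, 0.101 and 0.059, and leaving out controls 1, 2 and 3 gave 0.087, 0.17 and 0.17, while the log2 fold change stayed between 0.93 and 1.13. Calls over all genes moved too, from 503 higher and 222 lower with all libraries. Without treated replicates 1, 2 and 3 they were 1362, 3 and 244 higher and 1261, 1 and 58 lower. Without controls 1, 2 and 3 they were 68, 0 and 0 higher and 8, 0 and 0 lower. The loss of the call is thus not particular to NFKB2. With library totals in place of TMM the log2 fold change was 0.64 and did not pass (edgeR adjusted p = 0.070); that scaling shifted the median of all genes by -0.40.

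The fold changes of the 2 precursors had opposite signs, although that of NFKB1 did not pass. Their ratio within a library, which needs no scaling between libraries, separated the groups. Both genes were already separated in CPM, in opposite directions, so the ratio had to separate. Its separation and permutation test therefore restate the values per gene and add no further evidence. Counts of NFKB2 per count of NFKB1 were 0.912, 1.46 and 0.968 with high cuff pressure and 0.470, 0.268 and 0.371 in controls. The lowest treated ratio was well above the highest control ratio. The mean log2 ratio was 0.12 ± 0.37 (SD, n = 3) against -1.47 ± 0.41, a 3.02-fold difference with an exact permutation p of 0.10 (two-sided), the smallest that 3 against 3 libraries allow. Leaving out any library kept this log2 difference between 1.38 and 1.79. Divided by model length (FPKM, which compares levels between genes), NFKB2 was at 1.06, 1.70 and 1.12 times the level of NFKB1 in the treated libraries and at 0.545, 0.311 and 0.431 times in controls, so the order of the 2 genes differed between the groups.

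Of 10 ratios compared, NFKB2 to REL was also separated, at 9.26, 39.1 and 12.1 counts per count against 5.68, 3.32 and 5.38. REL to NFKB1 was not: it stood at 0.0985, 0.0374 and 0.0797 against 0.0828, 0.0807 and 0.0690 (exact permutation p = 0.80). Leaving out high cuff pressure replicate 2 turned the sign of this log2 difference from -0.22 to 0.20. The 5 separated ratios of the 10 each had an exact permutation p of 0.10, or 0.20 after Benjamini-Hochberg adjustment over the 10.

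**Figure D2:**
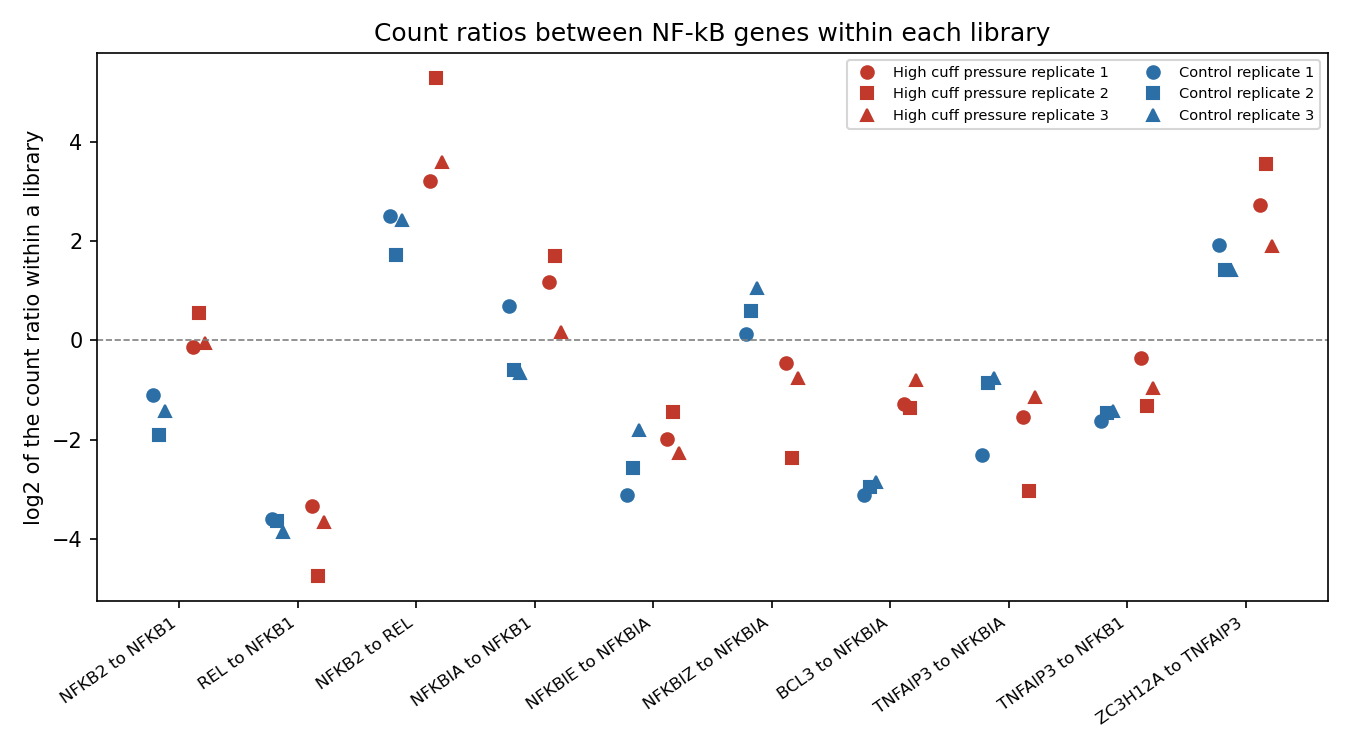
log2 of the count ratio between pairs of genes within each library; red symbols are the 3 high cuff pressure libraries and blue symbols the 3 controls. NFKB2 to NFKB1, NFKB2 to REL, BCL3 to NFKBIA and TNFAIP3 to NFKB1 are higher and NFKBIZ to NFKBIA lower in all treated libraries, while the other 5 overlap.

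BCL3 and NFKBIZ encode nuclear IkB proteins, which bind subunits on DNA and, depending on the gene, help or restrain transcription. BCL3 (ENSOCUG00000026628, scaffold GL019011, 15500 to 24763) had the largest change of the 10 genes. It stood at 69.6, 64.4 and 42.1 CPM with high cuff pressure and at 14.7, 8.94 and 8.09 CPM in controls. The lowest treated library was well above the highest control. It rose by 2.47 ± 0.33 SE on the log2 scale, 5.55-fold with a 95% interval of 3.26 to 9.46 (edgeR adjusted p = 0.017), and ranked 59 of 13724 genes by p. Removing treated replicate 2 gave an edgeR adjusted p of 0.063, and removing control replicate 2 or control replicate 3 gave 0.091 or 0.092; in the last 2 fits 0 of all genes passed. Its log2 fold change was 2.31 to 2.79 over the 6 fits that left out a library.

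NFKBIZ, whose product is needed for a second wave of cytokine genes in macrophages and epithelium (chromosome 14, 118679073 to 118690066), did not follow BCL3. It stood at 122, 32.1 and 43.0 CPM with high cuff pressure and at 140, 104 and 121 CPM in controls. Treated replicates 2 and 3 were far below the controls and replicate 1 was among them. The log2 fold change was -0.89 ± 0.47 SE (95% interval -1.98 to 0.21, edgeR adjusted p = 0.25), and without high cuff pressure replicate 1 it was -1.69 and passed (edgeR adjusted p = 0.013). Leaving out the only treated library within the control range had to lower this value, so the pass adds no evidence of a fall. In that fit 1362 of 14064 tested genes were higher and 1261 lower. Counts of NFKBIZ per count of NFKBIA were 0.726, 0.195 and 0.589 against 1.09, 1.51 and 2.08, which did not overlap, whereas counts of BCL3 per count of NFKBIA were 0.413, 0.390 and 0.577 against 0.115, 0.13 and 0.139.

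NFKBIA and NFKBIE encode cytoplasmic IkB proteins, the inhibitors that NF-kB induces to pull itself back out of the nucleus. NFKBIA (chromosome 17, 55106578 to 55109740) was at 169, 165 and 73.0 CPM with high cuff pressure and at 128, 68.9 and 58.2 CPM in controls. Treated replicates 1 and 2 were above all controls, but replicate 3 was below control replicate 1. Its log2 fold change of 0.67 ± 0.41 SE (95% interval -0.27 to 1.62) did not pass (edgeR adjusted p = 0.31). Per count of NFKB1, the inhibitor had 2.28, 3.28 and 1.13 counts against 1.61, 0.659 and 0.634, which overlapped (exact permutation p = 0.20).

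NFKBIE (chromosome 12, 33637530 to 33644806) showed the same pattern more strongly, at 42.3, 60.5 and 15.1 CPM against 14.8, 11.6 and 16.7 CPM. Replicates 1 and 2 of the treated group were far above the controls and replicate 3 was inside their range. Its log2 fold change was 1.45 ± 0.47 SE (95% interval 0.36 to 2.54, edgeR adjusted p = 0.096). It passed with DESeq2 (adjusted p = 0.025) and with edgeR after removing treated replicate 3 (1.84, adjusted p = 0.036). Removing the only treated library inside the control range had to raise this value, so the latter pass adds no evidence of a rise. In that fit 244 of all genes were higher and 58 lower. Its ratio to NFKBIA overlapped between the groups (0.251, 0.367 and 0.206 against 0.115, 0.168 and 0.287).

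TNFAIP3 encodes a ubiquitin-editing enzyme that shuts off signalling above the kinase complex, and TNIP3 a protein that binds it. TNFAIP3 (chromosome 12, 128329706 to 128460517) was at 58.2, 20.2 and 33.3 CPM with high cuff pressure and at 26.0, 38.0 and 34.5 CPM in controls. Treated replicate 1 was the highest of the 6 libraries and replicate 2 the lowest. The log2 fold change of 0.18 ± 0.38 SE (95% interval -0.70 to 1.07, edgeR adjusted p = 0.78) became -0.29 on removing treated replicate 1 and -0.21 with library totals, so its sign differed between settings. Its count ratio to NFKB1 was higher in every treated library, at 0.786, 0.402 and 0.516 against 0.327, 0.364 and 0.375. The margin was narrow, and NFKB1 itself was lower in every treated library, so this ratio does not show a rise of TNFAIP3.

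TNIP3 (chromosome 15, 96312754 to 96425156) was the most variable of the 10, with 719, 102 and 185 counts with high cuff pressure and 303, 88 and 363 counts in controls, or means of 32.3 ± 33.4 and 19.3 ± 11.8 CPM (SD, n = 3). Only treated replicate 1 was above the controls. The log2 fold change was 0.74 ± 0.79 SE (95% interval -1.09 to 2.58, edgeR adjusted p = 0.56) and -0.56 without that library.

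ZC3H12A encodes an endoribonuclease that cuts inflammatory mRNAs such as that of IL6 (scaffold GL018704, 982017 to 989469). It stood at 384, 239 and 124 CPM with high cuff pressure and at 98.2, 102 and 92.4 CPM in controls. All treated libraries were above the controls, which spanned only 1.11-fold, but they differed among themselves by 3.10-fold. This log2 fold change was 1.35 ± 0.38 SE (95% interval 0.46 to 2.24) and missed the threshold (edgeR adjusted p = 0.074). It passed with DESeq2 (adjusted p = 0.011) and with edgeR without high cuff pressure replicate 3 (adjusted p = 0.035). Replicate 3 was the lowest treated library, so leaving it out had to raise the fold change, and the latter pass adds no evidence. On the opposite strand the row of MEAF6 overlaps it by 3179 bp with 1840 counts over the 6 libraries, against 11578 for ZC3H12A; the strand setting of the counting is not given, so the split between these genes is uncertain. The row described as interleukin-6 held 174, 58 and 27 counts in the treated libraries and 14, 2 and 0 in controls. Its order over the treated libraries was that of ZC3H12A, but also that of BCL3, NFKBIA and the neutrophil marker sum. The order is thus not particular to this pair, and a link between them was not tested.

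**Figure D3:**
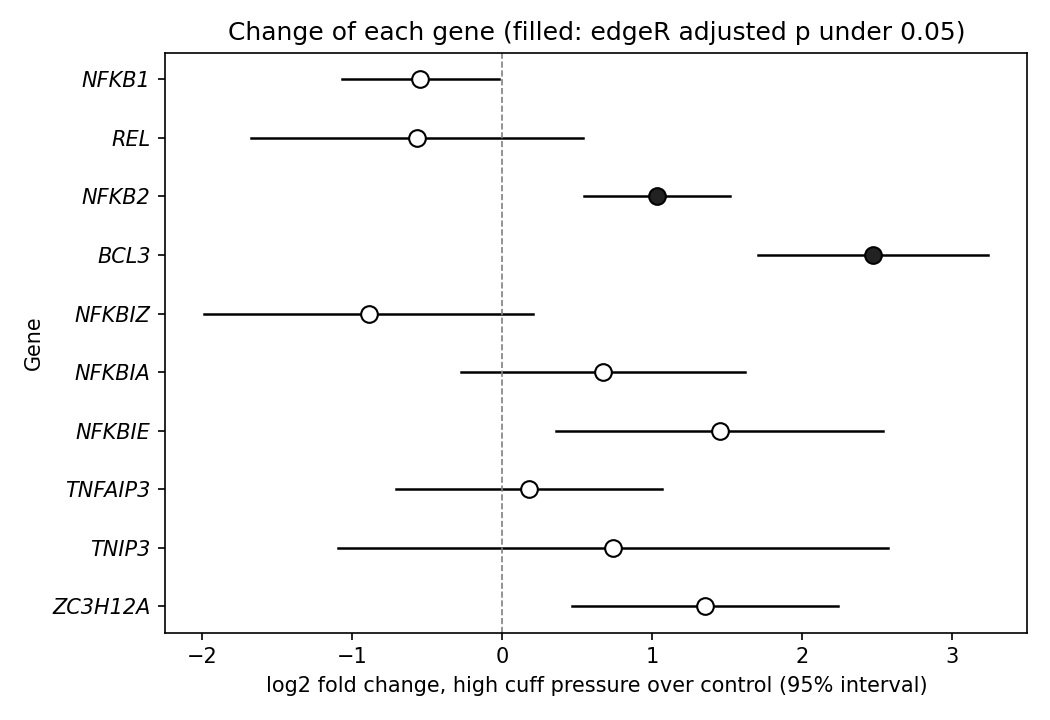
log2 fold change of each gene, high cuff pressure over control, with its 95% interval from the edgeR fit to 3 against 3 libraries; filled circles have an adjusted p under 0.05. BCL3 (2.47) and NFKB2 (1.03) are filled, and the intervals of ZC3H12A and NFKBIE also lie above 0.

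Compared per length in FPKM, ZC3H12A and NFKBIA were the most abundant of the 10 with high cuff pressure, at 88.7 ± 47.7 and 77.1 ± 29.1 FPKM (SD, n = 3), and their ranges overlapped. NFKB2 (23.6 ± 0.627 FPKM) came next, clear of NFKBIA, followed by TNIP3, BCL3, NFKBIZ and NFKB1 at 22.8 to 19.0 FPKM, where each neighbour overlapped the next. NFKBIE (10.5 FPKM) and TNFAIP3 (8.07 FPKM) followed, and REL (1.65 ± 0.980 FPKM) was clear of all others. In controls the order was NFKBIA (62.7 ± 21.5 FPKM), NFKBIZ (46.4 ± 3.59 FPKM), ZC3H12A (45.8 ± 4.67 FPKM) and NFKB1 (36.6 ± 7.77 FPKM), each overlapping the next. TNIP3 and NFKB2 followed at 17.4 and 15.1 FPKM, then TNFAIP3 at 9.33 FPKM, and NFKBIE (5.15 FPKM), BCL3 (4.59 FPKM) and REL (3.18 FPKM) were lowest. BCL3 thus ranked 9 of 10 in controls and 5 of 10 with high cuff pressure, and its mean FPKM stood at the percentile 28.5 of tested genes in controls and 73.2 in the treated group. NFKB2 moved from the percentile 60.2 to 77.4, and NFKB1 from 81.8 to 72.4.

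The 10 genes did not share 1 pattern over the 6 libraries, but most of them peaked in the same treated library. Among the 3 treated libraries, replicate 1 held the highest CPM for 8 of 10 genes, replicate 2 for 2 and replicate 3 for 0. Of all tested genes, 33.8% peaked in replicate 1. The lowest value lay in replicate 1 for 0 of the 10 and in replicates 2 and 3 for 5 each. Over all tested genes, these shares were 36.9%, 32.6% and 30.5% for replicates 1 to 3. Replicate 1 was also the library with the highest neutrophil marker sum, and it stood apart in other cell type sums. Over treated replicates 1 to 3 the smooth muscle markers summed to 473, 4080 and 7024 CPM, the fibroblast markers to 303, 1155 and 1652 CPM, and those of multiciliated and secretory cells to 2904, 21639 and 19445 CPM. The part of this difference in the values of the 10 genes was not tested beyond the fits without replicate 1. BCL3, NFKBIA and ZC3H12A had the same order over the treated libraries as the neutrophil marker sum (replicate 1, then 2, then 3). NFKB1, REL, NFKBIZ, TNFAIP3 and TNIP3 did not: their order was replicate 1, then 3, then 2. NFKB2 and NFKBIE were highest in replicate 2. The share of all tested genes with each order was not counted. Spread was larger in the treated group for 8 of 10 genes, with a median SD of 0.79 log2 CPM against 0.24 in controls; over all tested genes it was larger for 77.1%, with medians of 0.47 and 0.27. The genes whose profile lay closest to the median profile of the 10 over the 6 libraries were HS3ST3B1, SLC25A47, LYPD6B, ELF3 and ACTR3B, with root mean square differences of 0.110 to 0.148 log2 CPM; none of these 5 passed the threshold (edgeR adjusted p = 0.26 to 0.49).

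**Figure D4:**
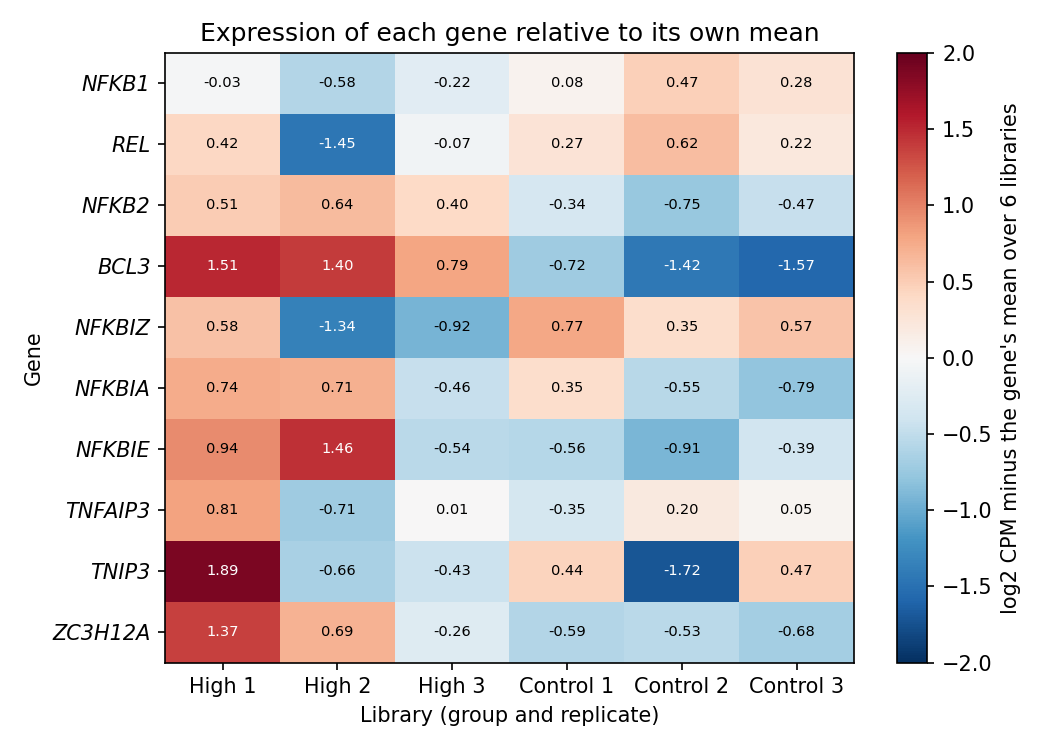
log2 CPM of each gene minus its mean over the 6 libraries, with red above and blue below that mean. NFKB2 and BCL3 are red in all 3 high cuff pressure libraries and blue in all 3 controls, NFKB1 shows the reverse, and NFKBIZ, TNFAIP3 and TNIP3 stand out in treated replicate 1 against replicates 2 and 3.

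Fold changes varied with gene length: the median log2 fold change was 0.22 in the fifth of genes with the shortest models (up to 1076 bp) and -0.16 in the fifth with the longest (3846 bp and more). The models of NFKB1, NFKB2, REL, BCL3 and ZC3H12A were close in length, at 2907, 2505, 2578, 2593 and 2444 bp. With a smooth length trend removed from each library, an alternative chosen after seeing the data, BCL3 and NFKB2 still passed (log2 fold changes 2.54 and 1.10, edgeR adjusted p = 0.015 and 0.032) and NFKB1 had -0.46 and did not (adjusted p = 0.17).

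Other genes of the pathway were read from 6 lists, 103 genes of which 79 were tested. With edgeR 12 were higher and 1 lower, where 3.67% and 1.62% of all tested genes were. The 12 include 6 target genes that met the filter on low counts only through the treated libraries. Among receptors, 3 of 12 were higher and 1 lower against those same shares, with a median log2 fold change of 0.67. TNFRSF1B, a receptor for tumour necrosis factor found mainly on leukocytes and endothelium, stood at 65.3, 83.9 and 55.7 CPM against 22.0, 16.7 and 16.3 CPM, a log2 difference of 1.90 ± 0.25 SE (edgeR adjusted p = 0.017). TNFRSF12A, the receptor for the ligand TWEAK and an activator of the non-canonical route, stood at 13.6, 44.4 and 40.0 against 6.32, 3.60 and 2.33 CPM (3.00 ± 0.55 SE, edgeR adjusted p = 0.034); 2 overlapping rows held 347 counts. TLR4, the lipopolysaccharide receptor, was higher (log2 fold change 1.82, edgeR adjusted p = 0.047), and TLR6, a partner of TLR2, was lower (-1.56, adjusted p = 0.038). The groups did not overlap for 7 of the 12 receptors with higher values and 1 with lower values, beside 18.6% and 18.7% of all tested genes. These include the 4 named here, which were picked for passing the threshold. Of 4 tested ligands of the non-canonical route, 0 passed with edgeR, 0 had an unadjusted p under 0.05 and 0 passed with DESeq2; LTB, a lymphotoxin subunit, had the smallest p (0.93 ± 0.48 SE, edgeR adjusted p = 0.24).

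Among kinases and adaptors, edgeR called 3 of 26 higher and 0 lower, where 3.67% and 1.62% of all tested genes were called, with a median log2 fold change of 0.17. DESeq2 called 6 higher and 1 lower, beside 10.7% and 8.55% of all genes, and 8 higher and 2 lower had an unadjusted p under 0.05, beside 29.3% in either direction. The 3 were the kinase IRAK1 (1.34, edgeR adjusted p = 0.034), the adaptor MYD88 (0.93, adjusted p = 0.048) and RBCK1, a subunit of a ubiquitin ligase (0.97, adjusted p = 0.049). The groups did not overlap for 11 of the 26 with higher values and 3 with lower values, beside 18.6% and 18.7% of all tested genes. IRAK1, MYD88 and RBCK1 were among the 11 and were picked for passing the threshold. MYD88, for one, stood at 40.2, 48.1 and 50.6 CPM against 23.0, 24.8 and 24.9 CPM. Rows that overlap MYD88 (1 row with 7934 counts) and RBCK1 (10 rows with 10632 counts) held more counts than these genes themselves, so with the strand setting unknown both values are uncertain. Of 18 further inhibitors, 0 passed with edgeR in either direction, against the same 3.67% and 1.62%. DESeq2 called 0 higher and 3 lower, beside 10.7% and 8.55% of all genes, and 1 higher and 3 lower had an unadjusted p under 0.05, beside 29.3%; the median log2 fold change was -0.24. TAX1BP1, an adaptor of the enzyme that TNFAIP3 encodes, had the smallest p, at 240, 175 and 101 CPM against 351, 355 and 499 CPM (a log2 difference of -1.22 ± 0.35 SE, adjusted p = 0.074 with edgeR).

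Among 19 tested target genes edgeR called 6 higher and 0 lower, beside 3.67% and 1.62% of all tested genes, with a median log2 fold change of 0.88. These 6 were low in controls and met the filter on low counts only through the treated libraries, where they were high. The number of calls and the median of this list can therefore be tilted towards higher values, and they are not used as support for a response. DESeq2 called 10 higher and 0 lower, beside 10.7% and 8.55%, and 10 higher and 1 lower had an unadjusted p under 0.05, beside 29.3% in either direction. The 3 with the smallest p were the cytokine genes CSF3, IL1A and IL1B. CSF3 had 1456, 215 and 441 counts in the treated libraries and 22, 4 and 11 in controls; 1 overlapping row held 10836 counts, more than CSF3 itself, so its value is uncertain for the same reason. IL1A had 140, 38 and 38 counts against 2, 0 and 0, and IL1B had 2388, 896 and 228 against 32, 7 and 7. These 3 were highest in treated replicate 1, as were 8 of the 10 subunits and feedback inhibitors and 33.8% of all tested genes. Without control replicate 2 or control replicate 3, 0 genes of any of these lists passed, as was the case for all genes, and removing treated replicate 2 also left 0 higher and 0 lower in these lists (12 and 1 with all libraries), in a fit where 3 of all genes were higher and 1 lower.

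**Figure D5:**
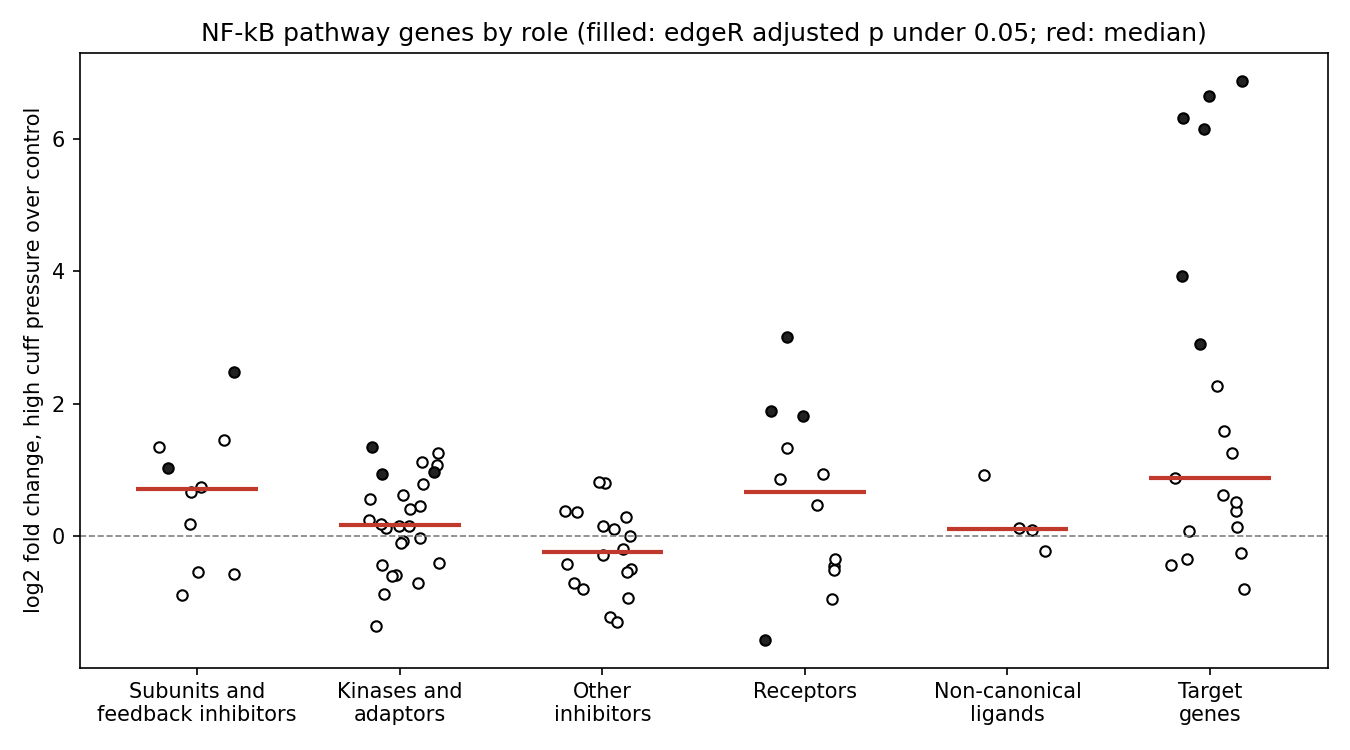
log2 fold change of every tested gene, high cuff pressure over control, for the 10 subunits and feedback inhibitors and for 5 groups of other pathway genes; filled circles have an edgeR adjusted p under 0.05 and red bars are medians. The target genes reach the highest values, and the 18 further inhibitors have a median of -0.24.

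The authors' deposited table of genes gave q-values of 9.2e-08 for BCL3, 0.023 for ZC3H12A, 0.028 for NFKB2 and 0.031 for NFKBIE, so that 4 of the 10 were under 0.05 there, beside 8.89% of its 19001 genes. For NFKBIZ, NFKB1 and NFKBIA the authors' deposited table gave q-values of 0.23, 0.35 and 0.38. In the authors' deposited table of KEGG pathways, the NF-kappa B signaling pathway had 7 changed genes of 63, all higher, at a rich factor of 1.5 with p = 0.21 and q = 0.69, and 0 of the 10 genes described here were among those 7. Which of the 10 belong to the 63 annotated genes was not checked, nor was the authors' rule for a changed gene. Their absence from the 7 therefore says nothing about their change.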

How the data were processed

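The 6 libraries were grouped and numbered by the library names in the labels; control replicate 3 bears the title S4, so the meaning of the numbers is uncertain. The labels state n = 3 per group and 1 batch; they do not say that each library is a separate animal, so the p-values reflect variation between libraries, which may be technical. HISAT2 2.0.4, StringTie 1.3.3b and edgeR are listed in the submitters' processing notes, with roles, genome build and strand setting not given in the sources used here. Raw read counts and FPKM per gene were deposited by the authors; the FPKM equal the count over model length and library total. The authors' deposited tables add p-values and q-values per gene and, for KEGG pathways, a rich factor, which is a ratio of shares.

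Counts were fitted with edgeR 4.0.16 in R 4.3.3 (filterByExpr, TMM, glmQLFit with robust estimation, glmQLFTest, Benjamini-Hochberg adjustment over 13724 genes, threshold 0.05). The SE was obtained as the size of the log2 fold change over the root of the F statistic, and log2 CPM use a prior count of 2. The fits were tested on simulated data. Libraries of a group differed by more than sampling noise (56.1 to 137 chi-square units per degree of freedom). Ratios were tested by exact permutation, two-sided. Alternatives were DESeq2 1.42.0, RLE factors, library totals, other filters, limma-voom and limma-trend on FPKM (limma 3.58.1), no robust estimation, a replicate block, leaving out each library and, added after seeing the data, removal of a length trend (lowess span 0.5). The 10 genes, the 6 pathway lists and 11 cell type lists were chosen with earlier results of these data known. The text names all 10 genes, up to 3 genes with the smallest p per pathway list among those past the threshold (or the 1 with the smallest p), and the 5 genes most alike in profile; MEAF6, the interleukin-6 row and cell type markers are named outside this rule. The other cell type lists gave summed CPM ranges, high cuff pressure first, of 20.9 to 26.6 and 24.7 to 33.7 for T and NK cells, 109 to 223 and 480 to 1213 for B and plasma cells, 546 to 1138 and 264 to 730 for endothelium, 303 to 1652 and 1439 to 2434 for fibroblasts, 473 to 7024 and 5235 to 8882 for smooth muscle, 2904 to 21639 and 6137 to 22702 for multiciliated and secretory cells, 61.5 to 97.0 and 26.1 to 61.7 for cartilage, and 1.36 to 19.5 and 4.59 to 13.2 for red blood cells.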

Additional observations from a re-analysis of the deposited data

How the results depend on the processing

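The direction of BCL3, NFKB2, NFKBIE, ZC3H12A, NFKBIA, NFKB1, REL and NFKBIZ was the same in all 18 other settings, while BCL3 passed in 15 of them (adjusted p 1.7e-09 to 0.092) and NFKB2 in 8 (0.00059 to 0.17). TNFAIP3 turned to -0.21 with library totals, -0.28, -0.32 and -0.28 in the 3 FPKM settings and -0.29 without high cuff pressure replicate 1, which also turned TNIP3 to -0.56. Library totals and the 3 FPKM settings share the lack of TMM factors. Their median log2 fold changes over all genes were -0.40, -0.35, -0.41 and -0.14, against -0.01 in the main fit. Leaving out 1 library in turn gave -0.29 to 0.48 for TNFAIP3 and -0.56 to 1.14 for TNIP3, and the cause was not tested. The log2 ratio difference of REL to NFKB1 turned to 0.20 without high cuff pressure replicate 2, in a range of -0.50 to 0.20. Beside 503 higher and 222 lower genes, DESeq2 called 1461 and 1170, with 4 of the 10 genes and 22 and 5 of the other pathway genes. Library totals gave 389 and 1241 (23.9% of calls higher against 69.4%), with 1 of the 10 higher and 6 pathway genes lower. FPKM with a pseudocount of 1 gave 434 and 1748 (1 of the 10 higher, 1 lower and 6 pathway genes lower), with 0.1 it gave 403 and 1448 (1 higher, 6 pathway genes lower), and without a filter 127 and 214 (1 of the 10, and 2 and 0 pathway genes). Leaving out 1 library gave 0 to 1362 higher and 0 to 1261 lower genes, 0 to 3 higher and 0 to 1 lower of the 10, and 0 to 16 higher and 0 to 5 lower pathway genes. A depth of 16 counts limits REL in high cuff pressure replicate 2.

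With the replicate number as a block, 198 genes were higher and 46 lower, with 1 of the 10 (BCL3) and 6 and 0 of the pathway genes; NFKB2 had 1.04 (adjusted p = 0.14). Whether the numbers pair the libraries is not stated in the labels. The deviations of same-numbered libraries from their group means correlated at -0.28, -0.20 and -0.23 across genes. These values show no sign of pairing, but with 3 libraries per group they cannot exclude it.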
